A study of Apis mellifera with 12 samples.

Results

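In ovaries of honey bee (Apis mellifera) queens, 452 of 20244 listed circular RNAs (circRNAs) joined back-spliced ends no more than 500 nt apart and had reads in at least 2 of 3 libraries in each of 4 groups. These short, widely listed circRNAs were chosen from their read counts and their spans, where the span is the end minus the start in the deposited table. The stretches LG2, plus strand, 4622669 to 4807227 and LG3, plus strand, 1090193 to 1190378 were left out. They hold 42 widely listed circRNAs, of which 5 were short. The rule asks for the same detection in each group and uses no difference between groups, so detection in all groups is a property of the choice and not a result. It also leaves out circRNAs that are listed in some groups and missing from others. In all, 8107 listed circRNAs spanned up to 500 nt, and the 7650 of them that were not widely listed held a mean of 1.79% to 3.61% of circRNA reads per group.

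The libraries came from whole ovaries of 4 kinds of queens, with 3 libraries each: virgin queens, queens laying normally, queens kept from laying by a cage for 7 days within their own colony, and queens released from such a cage and sampled on day 8, when they laid again. The groups are called virgin, laying, caged and released. No strain, line or age in days is given for the queens, and it is not stated that replicates came from separate queens, so p-values measure the spread between these samples. Virgin queens differ from the others in more than ovary activation, such as mating and age, and these cannot be told apart here. The ovary label could not be checked against marker genes, since no circRNA was matched to a gene.

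CircRNAs form when the splicing machinery joins a downstream splice donor to an upstream acceptor, and the resulting loop has no free end, so that RNase R, which digests linear RNA from its end, leaves it largely intact. A short span between the back-spliced ends leaves room for a single exon or a few small exons, while a long span can hold many exons and introns. A queen's ovary consists of many ovarioles with germ cells, nurse cells and follicle cells, and it grows and starts to mature eggs when laying begins. In whole ovaries, fewer cells of a type and less of an RNA per cell cannot be told apart.

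The spans of the 452 circRNAs ran from 151 to 498 nt, with a median of 328 nt and quartiles of 261 and 414 nt. They were spread over 22 chromosomes or scaffolds, with 63 on LG1, 38 on LG2, 35 on LG10 and 31 each on LG3 and LG5. The plus strand held 225 and the minus strand 227. Few were near the lower end: 34 spanned 150 to 199 nt, against 83 at 250 to 299 nt and 64 at 450 to 500 nt. The shortest were ame_circ_0001011 (LG10, 2024162 to 2024313, minus strand) at 151 nt, ame_circ_0016351 at 164 nt and ame_circ_0008090 at 166 nt. Just inside the bound were ame_circ_0000772 at 498 nt and ame_circ_0005505 and ame_circ_0014083 at 496 nt. Just outside it were ame_circ_0006374 at 502 nt, with a mean of 1414 CPM, and ame_circ_0008853, also at 502 nt. A span divisible by 3 was seen in 158 (34.96%), against 36.1%, 36.1% and 32.4% of the widely listed circRNAs spanning over 500 to 2000, over 2000 to 10000 and over 10000 nt.

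The back-splice sites of these circRNAs were often used by other circRNAs as well. A start was shared with another listed circRNA by 280, an end by 260, at least one of the 2 by 374 (82.7%) and both by 166. The share with at least 1 such end was 87.0%, 94.6% and 97.8% in the 3 longer classes, in order of span. On the same strand 364 (80.5%) lay wholly inside a longer listed circRNA, and 171 (37.8%) inside a widely listed one. Only 74 overlapped no other listed circRNA on their strand, and the remaining 378 overlapped a median of 2 and at most 39. A circRNA on the opposite strand overlapped 46 of the 452.

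Of the 378 that overlapped another circRNA, 248 held over 50% of the reads of all overlapping circRNAs of the strand, 122 held over 90% and 33 under 10%, with a median of 71.7%. Among the sites with the most partners the share of the short circRNA ran from low to high. The end at LG10, minus strand, 6246217 was used by 9 listed circRNAs, and the short one among them, ame_circ_0001519, held 7.42% of their reads. The end at LG2, minus strand, 10831810 was used by 8, of which the short ame_circ_0010762 held 14.8% of the reads. The start at LG14, plus strand, 1714098 was also used by 8, and the short ame_circ_0004971 held 6.04%. At other sites used by 8 listed circRNAs the short ones held more: ame_circ_0006126 held 91.4% at the end at LG15, minus strand, 3057179, and 4 short circRNAs together held 94.7% at the end at scaffold GL630411.1, plus strand, 1399. These sites were added after their values were seen.

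Levels are given as CPM, the reads of a circRNA per 1000000 circRNA reads of the library, with no term for length. Over 12 libraries the mean level of the 452 ran from 14.3 to 15569 CPM, with a median of 102 and quartiles of 47.1 and 296 CPM. Over 1000 CPM were 38 (8.41%), against 7.97%, 6.75% and 5.77% of the 3 longer classes. All 12 libraries listed 299 of the 452 (66.2%), and 8 were listed in only 8 libraries, the least the rule allows. Between 413 and 448 were listed per library. The 153 that missed 1 library in at least 1 group had a median level of 38.8 CPM, and the 299 listed everywhere 195 CPM. Another 134 short circRNAs missed the rule by 1 group with a single library, at a median of 28.0 CPM. The median coefficient of variation over the 12 libraries was 0.588, against 0.534, 0.543 and 0.561 in the 3 longer classes.

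Library totals ran from 66487 (virgin replicate 2) to 206697 circRNA reads (caged replicate 1). No count of 1 occurs in the table and the smallest count above 0 is 2, so a circRNA listed at 0 may have had a read. A circRNA of 102 CPM, the median here, rests on 6.78 reads in the smallest library and 21.1 reads in the largest. Of the 452 circRNAs, 442 passed the filter on low counts for the test, which left 3215 circRNAs of all kinds, and 10 were not tested. Counts of calls are out of these 442.

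The 452 circRNAs took a smaller part of the circRNA reads in caged queens than in any other library. Their share was 19.7%, 23.1% and 20.7% in the virgin libraries and 19.3%, 19.3% and 18.8% in the laying libraries. It was 15.6%, 16.1% and 16.2% in the caged libraries and 19.2%, 18.2% and 17.7% in the released libraries. The means were 21.2 ± 1.75%, 19.1 ± 0.282%, 16.0 ± 0.308% and 18.3 ± 0.761% (SD, n = 3 each). Thus each caged library lay below all 9 others, and the virgin and laying ranges did not overlap, while laying and released ranges did. This is a sum over circRNAs chosen with results of these data known, so it was not tested.

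**Figure D1:**
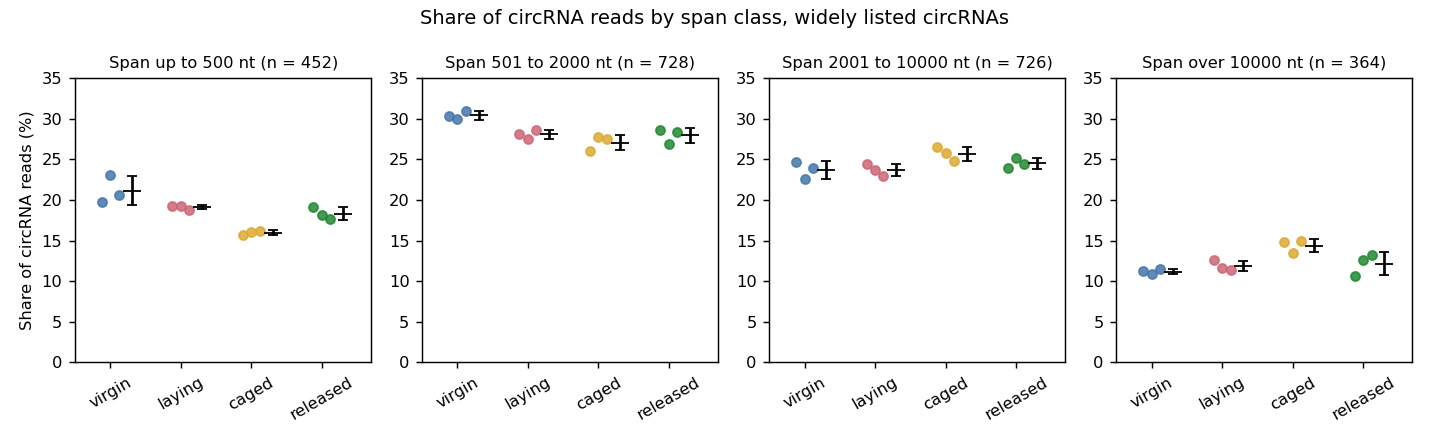
Share of circRNA reads (%, y axis from 0) taken by widely listed circRNAs of 4 span classes in virgin, laying, caged and released ovaries. Points are libraries and bars are the mean ± SD of 3 libraries. In the class up to 500 nt the 3 caged libraries sit between 15.6% and 16.2%, below the other 9, and in the class over 10000 nt the caged mean is the highest at 14.4%.

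The longer classes held other shares. CircRNAs of over 500 to 2000 nt had means of 30.4%, 28.1%, 27.1% and 28.0% in virgin, laying, caged and released libraries. Those over 10000 nt had 11.2%, 11.9%, 14.4% and 12.1%, the highest in caged queens. Shares of one total must sum to the whole, so a lower share in one class comes with a higher share in another. The circRNAs of the left-out stretches on LG2 and LG3 went from 2.56% in virgin to 10.3%, 9.07% and 9.43% in laying, caged and released libraries. Without the reads of those stretches in the total, the short circRNAs took 20.2% to 23.9% in virgin and 21.1% to 21.5% in laying libraries. They took 17.3% to 17.8% in caged and 19.5% to 21.2% in released libraries. On that total the virgin and laying ranges overlapped, and the caged libraries still lay below all others.

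A few circRNAs weighed on these sums. The 10 with the highest levels took 26.7% of the reads of the 452 in virgin libraries and 40.2%, 37.5% and 37.7% in laying, caged and released libraries. Without ame_circ_0006312, the highest, the mean shares were 20.6%, 16.7%, 14.4% and 16.7%. Caged libraries then still lay below the rest, with the highest caged library at 15.45% and the lowest released library at 15.57%. Counted by circRNA, the caged mean was below the laying mean in 272 of the 452 and below the released mean in 311. It was the lowest of the 3 in 218 and the highest in 87. These comparisons share the caged libraries, and the same counts were not taken for other circRNAs. The caged libraries held 170382 to 206697 reads, virgin replicate 1 held 201414 at a share of 19.7%, and laying replicate 2 held 173922 at 19.3%. The other 7 libraries held fewer reads, from 66487 to 163875, and the part of depth in the share was not tested.

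By span, the shares of the shorter ones were lower in laying than in virgin libraries, and that of the longest was higher. The 100 circRNAs of up to 250 nt took means of 5.51%, 3.50%, 2.93% and 3.84% of reads in the virgin, laying, caged and released groups. The 157 over 375 nt took 7.53%, 9.61%, 7.80% and 8.57%, with ame_circ_0006312 among them. That circRNA alone took 0.537%, 2.47%, 1.55% and 1.67%, so most of the higher laying share of this span range lay in it. The 195 in between took 8.12%, 6.01%, 5.26% and 5.92%.

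The comparison of laying with virgin queens addresses the activation of the ovary. Laying ovaries had higher levels of 35 of the 442 short circRNAs and lower levels of 77 (edgeR quasi-likelihood test, Benjamini-Hochberg adjusted p under 0.05 over all 3215). That is 7.92% higher, where 12.5% of all circRNAs tested and 12.8% of widely listed ones of any span were called higher. It is 17.4% lower, where 10.3% of all and 11.1% of widely listed ones were called lower. The median log2 fold change of the 442 was −0.22, and that of all tested was 0. Fitted changes were above 0 in 189 and below 0 in 253. Over 4-fold were 48 of the called short ones, and 427 of the 731 called among all tested. The median size of the called log2 fold changes was 1.89, against 2.25 among all tested and 1.88 among widely listed ones. In the longer classes 93 were higher and 86 lower of 702 at over 500 to 2000 nt, 87 and 61 of 700 at over 2000 to 10000 nt, and 50 and 24 of 351 over 10000 nt. The difference between the classes was not tested. With scaling by library totals the median of all tested moved to −0.15, and 29 of the short circRNAs were called higher and 91 lower, where 11.2% and 12.9% of all tested were.

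**Figure D2:**
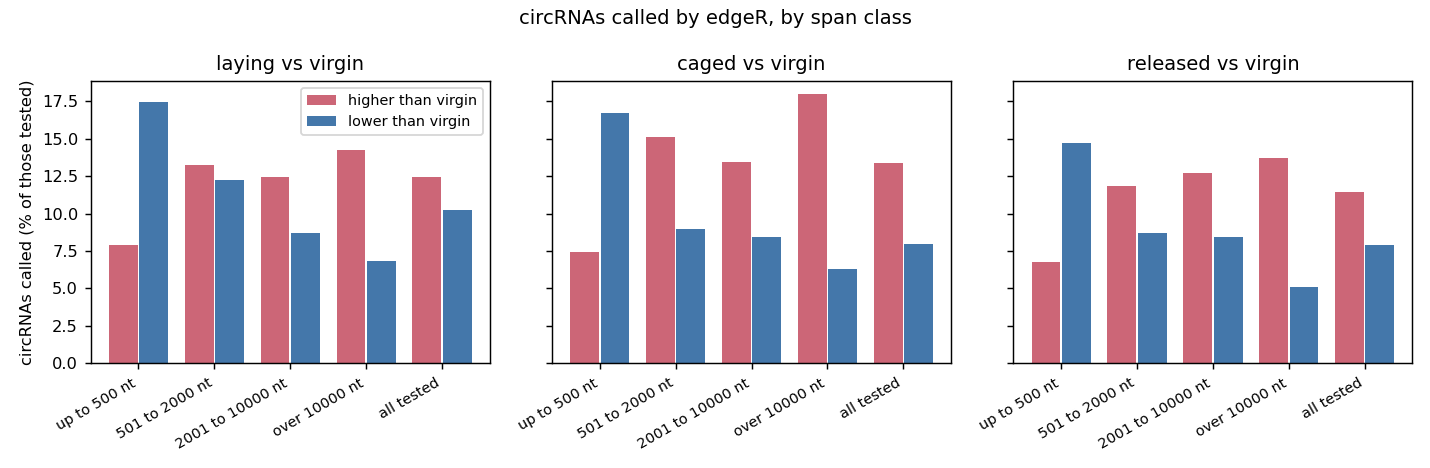
Percent of tested circRNAs called higher or lower than in virgin queens (edgeR quasi-likelihood test, adjusted p under 0.05) by span class and for all tested. In laying vs virgin, the class up to 500 nt had 7.92% higher and 17.4% lower, and all tested had 12.5% and 10.3%.

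More were called at higher levels. Of the 148 short circRNAs with the lowest levels 1 was called higher and 2 lower (0.676% and 1.35%), where 5.07% and 5.25% of all tested in the same range of levels were called. Of the middle 146, 4 and 26 were called (2.74% and 17.8%, all tested 14.1% and 13.1%), and of the 148 with the highest levels, 30 and 49 (20.3% and 33.1%, all tested 28.1% and 18.9%). By span, 4 rose and 15 fell of 99 up to 250 nt, with a median log2 fold change of −0.30. At 250 to 375 nt, 12 rose and 39 fell of 190, with a median of −0.30, and over 375 nt, 19 rose and 23 fell of 153, with a median of 0.05. Of all tested circRNAs of these spans, widely listed or not, 5 rose and 24 fell of 152, 17 and 52 of 268, and 31 and 31 of 217.

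**Figure D3:**
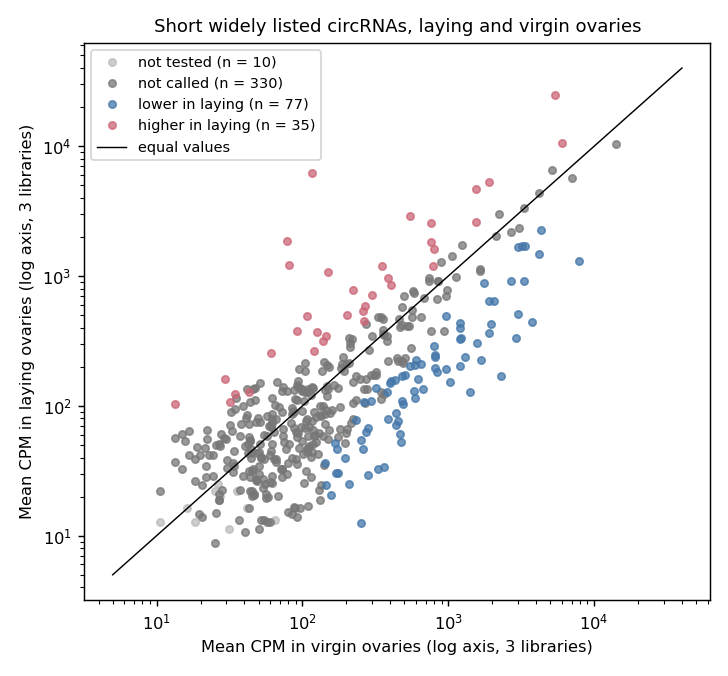
Mean level (CPM, log axes) of each short widely listed circRNA in virgin (x) and laying (y) ovaries, coloured by its call in laying vs virgin. The 10 that were not tested have their own colour. The 35 called higher lie above the diagonal and the 77 called lower below it.

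Among circRNAs that rose, ame_circ_0011802 (LG2, 4820556 to 4820912, plus strand) changed most. It starts 13329 nt beyond the end of the left-out stretch on LG2. Its level was 19.9, 256 and 75.6 CPM in virgin libraries and 6814, 6566 and 5185 CPM in laying libraries. It was 1959, 4830.3 and 1997 CPM in caged and 3525, 1220.4 and 1991 CPM in released libraries. The laying libraries were the highest and the virgin libraries the lowest, with no overlap between them or with the other 6. The rise from 117 ± 123 to 6188 ± 878 CPM (SD, n = 3 each) was a log2 fold change of 6.23 (SE 0.59, edgeR quasi-likelihood adjusted p = 2.92e-07). It remained called in each of the 21 alternatives tried, at 5.53 to 7.32.

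The circRNA ame_circ_0019528 (LG9, 10843189 to 10843584, plus strand) had 79.4, 105 and 50.4 CPM in virgin libraries and 1672, 1788 and 2109.8 CPM in laying libraries. In caged libraries it had 1427, 2007 and 1004 CPM, and in released libraries 1494, 1129 and 1162 CPM. All 9 other libraries were far above the virgin ones, and the 3 later groups overlapped. The log2 fold change in laying vs virgin was 4.73 (SE 0.34, edgeR quasi-likelihood adjusted p = 3.27e-08).

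The shortest of the 452, ame_circ_0001011, also rose. Its virgin libraries had 288, 872 and 479 CPM and its laying libraries 2376, 3082 and 3288 CPM. The caged libraries had 2105, 2429.8 and 2190.2 CPM and the released ones 3064, 2038 and 2288 CPM. Again the virgin libraries lay below the other 9, which overlapped among themselves. The log2 fold change was 2.67 (SE 0.29, edgeR quasi-likelihood adjusted p = 1.95e-06). No read of another overlapping circRNA was listed in 11 of the 12 libraries, and its lowest share of the reads at its place was 99.4%.

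With the highest level of all 452, ame_circ_0006312 (LG15, 5011343 to 5011735, plus strand) had 5913, 6498 and 3685 CPM in virgin libraries and 33073, 28662 and 12233 CPM in laying libraries. Its caged libraries had 21776, 16903 and 7842 CPM and its released libraries 13967, 15262 and 21013 CPM. Each of the 9 was above each virgin library, and replicates of the laying and caged groups differed among themselves by more than the means of the 3 later groups did. The log2 fold change in laying vs virgin was 2.37 (SE 0.38, edgeR quasi-likelihood adjusted p = 0.000135).

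Other abundant circRNAs that rose did so less. On LG1, ame_circ_0008426 (15519388 to 15519832, plus strand) had a mean of 5995 ± 358 CPM in virgin and 10544 ± 443 CPM in laying libraries, a log2 fold change of 0.97 (SE 0.21, edgeR quasi-likelihood adjusted p = 0.00203). The level of ame_circ_0016977 (LG6, 9962249 to 9962721, plus strand) went from 1887 ± 537 to 5301 ± 1076 CPM, and that of ame_circ_0008837 (LG1, 19461919 to 19462380, minus strand) from 1557 ± 198 to 4670.4 ± 560.0 CPM. Both were called, at log2 fold changes of 1.67 and 1.74, and so was ame_circ_0001185 (LG10), at 3.09, from 150.3 ± 66.6 to 1071 ± 101 CPM (SD, n = 3 each). Lower in level was ame_circ_0004140 (LG13), which went from 13.4 ± 12.7 to 104 ± 55.7 CPM and lost its call without virgin replicate 1 or without laying replicate 3.

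Among circRNAs that fell, ame_circ_0006273 (LG15, 4552042 to 4552384, minus strand) had the highest virgin level. It had 8177, 7339.8 and 8152 CPM in virgin libraries and 1252, 1276 and 1414 CPM in laying libraries. The caged libraries had 2530.3, 1021 and 2292 CPM and the released libraries 2096, 2844 and 1243 CPM. No library of the later groups reached any virgin library, and the 3 later groups overlapped. The log2 fold change in laying vs virgin was −2.43 (SE 0.33, edgeR quasi-likelihood adjusted p = 2.32e-05).

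For ame_circ_0004003 (LG12, 9899841 to 9900083, plus strand) the virgin libraries had 3063, 4602 and 3618 CPM and the laying libraries 427, 391 and 505 CPM. Caged libraries had 213, 305 and 267 CPM, and released libraries 442, 214 and 243 CPM. The caged libraries were all below the laying ones, and the released ones overlapped both. Its log2 fold change was −2.92 in laying, −3.62 in caged and −3.52 in released queens, each against virgin (SE 0.27, 0.28 and 0.28, edgeR quasi-likelihood adjusted p = 2.92e-07, 6.47e-08 and 1.05e-07). The 3 comparisons share the virgin libraries.

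The level of ame_circ_0004807 (LG13, 892881 to 893128, minus strand) was 1887, 2828 and 2149 CPM in virgin libraries and 89.95, 172 and 247 CPM in laying libraries. It was 150.0, 211 and 357 CPM in caged and 348, 207 and 432 CPM in released libraries. Even the lowest virgin library was above all others by a wide margin. The log2 fold change in laying vs virgin was −3.60 (SE 0.38, edgeR quasi-likelihood adjusted p = 1.07e-06). The circRNA ame_circ_0014448 (LG4, 9862687 to 9862976, plus strand) fell from 1419 ± 192 to 129 ± 73.3 CPM (SD, n = 3 each), with caged and released means of 265 and 271 CPM.

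Falls from lower virgin levels were seen in ame_circ_0011919 (LG2, 6866319 to 6866635, minus strand), ame_circ_0005926 (LG14) and ame_circ_0008794 (LG1). They went from means of 252, 363 and 327 CPM in virgin to 12.5, 33.7 and 32.5 CPM in laying libraries, and in each of them laying replicate 2 was listed at 0. All were called lower, at log2 fold changes of −4.26, −3.45 and −3.16, which rest on few reads on the laying side.

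**Figure D4:**
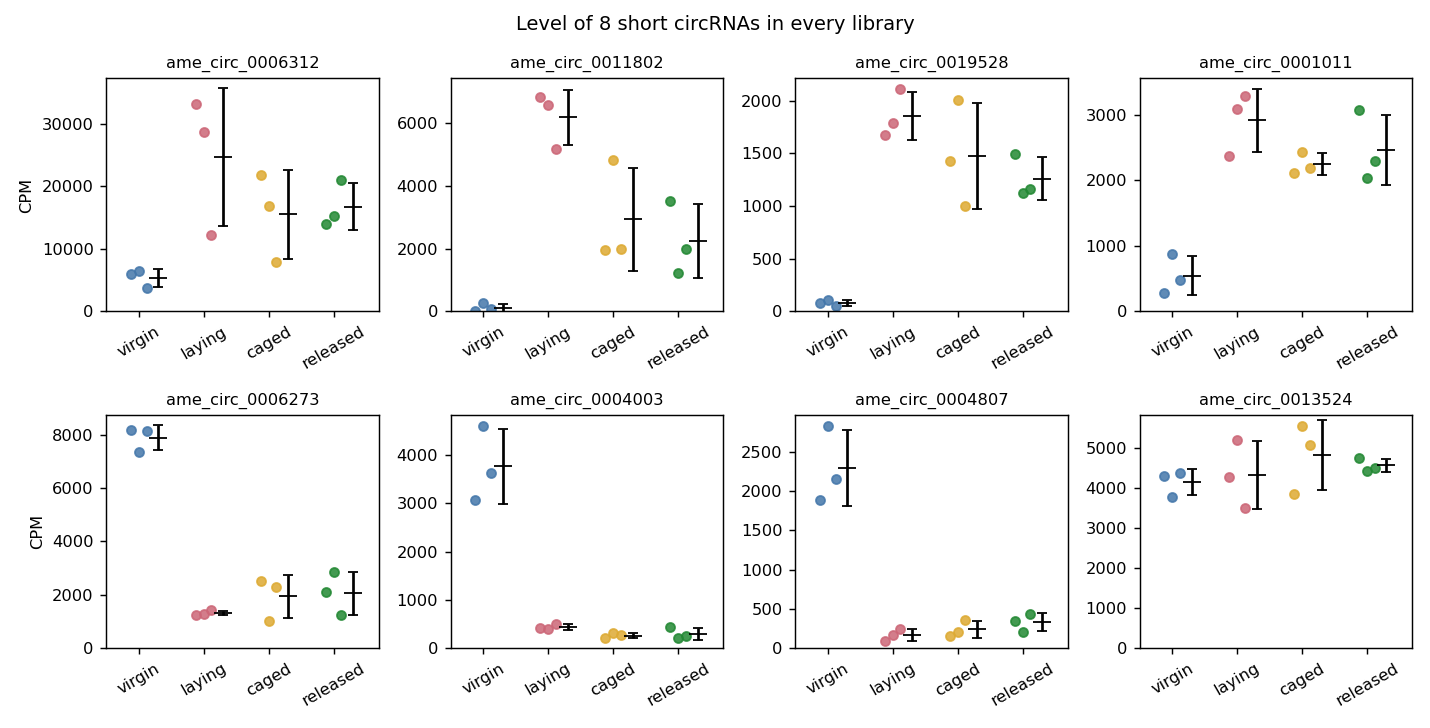
Level (CPM per library) of 8 short circRNAs in the 12 libraries by group. In ame_circ_0011802, ame_circ_0019528, ame_circ_0001011 and ame_circ_0006312 the virgin libraries are the lowest, in ame_circ_0006273, ame_circ_0004003 and ame_circ_0004807 they are the highest, and in ame_circ_0013524 the 4 group means differ little.

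Some of the most abundant short circRNAs differed little. The level of ame_circ_0013524 (LG4, minus strand) had the lowest coefficient of variation over the 12 libraries among those of at least median level, 0.136, with means of 4153, 4326, 4829 and 4563 CPM in virgin, laying, caged and released libraries. The circRNA ame_circ_0013256 (LG4, 10004084 to 10004329, plus strand) had the highest virgin mean, 14049.5 ± 3906 CPM, and 10484 ± 2441 CPM in laying libraries. It was not called, at a log2 fold change of −0.24 with a 95% interval of −0.76 to 0.28 (edgeR quasi-likelihood adjusted p = 0.528). That interval lies within 2-fold in either direction.

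The other comparisons with virgin queens had the same kind of split. In caged queens 33 of the 442 were higher (7.47%) and 74 lower (16.7%), where 13.4% and 7.96% of all tested and 14.2% and 9.88% of widely listed ones were called. The median log2 fold change was −0.41, and that of all tested 0.11. In released queens 30 were higher (6.79%) and 65 lower (14.7%), where 11.4% and 7.90% of all tested were called, and of the 2237 widely listed ones tested 269 were called higher and 204 lower. The median log2 fold change was −0.05 there, and that of all tested 0.09. These comparisons share the virgin libraries with the first, so their calls are not independent. In all 3, 21 circRNAs were called higher (4.75%, all tested 8.18%) and 54 lower (12.2%, all tested 4.91%). In none were 298 called (67.4%, all tested 69.1%), and 0 were called in opposite directions. Among the largest changes in these comparisons, ame_circ_0011982 (LG2, 8186199 to 8186627, minus strand) rose from 61.3 ± 27.8 CPM in virgin to 394 ± 240.1 CPM in caged libraries. In the other direction, ame_circ_0016895 (LG6, 9071440 to 9071717, minus strand) fell from 208 ± 63.4 to 16.0 ± 3.90 CPM in caged libraries, and ame_circ_0001856 (LG10, 9091338 to 9091609, plus strand) from 436 ± 96.4 to 39.2 ± 40.6 CPM in released libraries (SD, n = 3 each). Both of these falls rest on few reads on the lower side. Scaling by library totals moved the median of all tested by −0.18 in caged and −0.12 in released queens.

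Fewer circRNAs were called in both directions without virgin replicate 3. Without that library 22 were called higher in laying, 18 in caged and 18 in released queens, each against the other 2 virgin libraries. Of all 3685 then tested, 7.65%, 7.90% and 6.24% were called higher. Called lower were 56, 55 and 51 short circRNAs, where 6.43%, 4.48% and 4.88% of all tested were. The virgin libraries lay above all 9 others in CPM in 90 of the 442 (20.4%), where this held for 14.2% of all tested. They lay below all 9 in 24 (5.43%), where this held for 9.36% of all tested.

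Caged against laying queens addresses the stop of laying, and released against caged queens its recovery. No short circRNA was called in caged vs laying queens (0 of 442 by the edgeR quasi-likelihood test, where 0.0933% of all tested were called, 0.0622% higher and 0.0311% lower). At an unadjusted p under 0.05 there were 36 (8.14%, all tested 8.71%), and DESeq2 called 9 (2.04%, all tested 0.840%). No short circRNA was called in released vs caged queens either (0 of 442, where 0% of all tested were called), nor in released vs laying queens (0 of 442, where again 0% were called). At an unadjusted p under 0.05 there were 25 (5.66%, all tested 6.38%) and 34 (7.69%, all tested 7.22%). DESeq2 called 0 in both of the latter. Without the filter on low counts edgeR called 4, 2 and 2 of the 452 in the 3 comparisons, and 32, 10 and 11 of all 20244. The intervals were wide: the 95% interval of the fold change in caged vs laying queens lay within 2-fold for 80 of the 442 and within 4-fold for 281. For released vs caged queens it lay within 2-fold for 87 and within 4-fold for 279.

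Without single calls, the fitted changes of the 442 still leaned one way. The median log2 fold change was −0.11 in caged vs laying queens, where that of all tested was 0.09, with 187 above 0 and 255 below. It was 0.19 in released vs caged queens, where that of all tested was −0.06, with 284 above 0 and 158 below. These comparisons share the caged libraries. In 61 of the 442 (13.8%) all laying libraries were above all caged ones, where this held for 7.56% of all tested, and in 21 (4.75%, all tested 9.46%) they were below. All released libraries were above all caged ones in 42 (9.50%, all tested 6.03%) and below in 8 (1.81%, all tested 5.75%).

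In 15 of the 442 (3.39%, where 1.68% of all tested did so) the caged libraries were below all 6 laying and released libraries, and in 2 (0.452%, all tested 2.08%) they were above. Of the 10 most abundant short circRNAs, 3 were among the 15. The level of ame_circ_0016977 was 3062, 3463 and 2973 CPM in caged, 5097, 4341 and 6464 CPM in laying and 5000.2, 4759.7 and 4332 CPM in released libraries. That of ame_circ_0012805 (LG3, 4191272 to 4191740, minus strand) was 4509, 5171 and 4709.6 CPM in caged, 7106, 6652 and 5970.4 CPM in laying and 6288, 5944 and 5449 CPM in released libraries. That of ame_circ_0014678 (LG5, 12824075 to 12824301, plus strand) was 3803, 4026 and 4063 CPM in caged, 4325, 5531 and 7138 CPM in laying and 7453, 6810.1 and 4693 CPM in released libraries. In each the laying and released libraries overlapped each other and lay above the caged ones, but none passed the test. The edgeR quasi-likelihood adjusted p for caged vs laying was 0.269, 0.591 and 0.583, at log2 fold changes of −0.69, −0.41 and −0.47.

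By sums of CPM, the 452 were 31324 CPM lower in caged than in laying means and 23453 CPM lower than in released means. The largest single part of the difference from laying was in ame_circ_0006312, with 9149 CPM, followed by ame_circ_0011802 with 3259, ame_circ_0016977 with 2135 and ame_circ_0008426 with 2050 CPM. Of the difference from released queens, ame_circ_0006312 gave 1240 CPM, ame_circ_0016977 gave 1531 and ame_circ_0008426 gave 1501 CPM. The part of ame_circ_0011802 was −684 CPM, as it was higher in caged queens. The parts of this difference were not ranked over the 452.

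The smallest p in caged vs laying queens belonged to ame_circ_0000697 (LG10, 10481070 to 10481463, plus strand). It had 359.8, 598 and 494 CPM in laying and 1224, 939 and 1657 CPM in caged libraries, with no overlap. Virgin libraries had 298, 361 and 336 CPM and released libraries 1147, 610.2 and 1603 CPM, so that the released libraries were also above all laying ones. At a log2 fold change of 1.43 (SE 0.32) it was not called in caged vs laying queens (edgeR quasi-likelihood adjusted p = 0.108). It was called by DESeq2, without the filter on low counts, and without released replicate 2 or 3.

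The circRNA ame_circ_0007831 (LG1, 10338636 to 10339043, plus strand) had 273, 301 and 277 CPM in virgin and 29.98, 57.5 and 0 CPM in laying libraries. It had 135, 487 and 148 CPM in caged and 75.2, 48.8 and 180.1 CPM in released libraries. Caged and virgin libraries overlapped, and both lay above the laying ones. It fell in laying vs virgin queens (log2 fold change −2.89, SE 0.68, edgeR quasi-likelihood adjusted p = 0.00399). Its log2 fold change of 2.94 in caged vs laying queens was not called (edgeR quasi-likelihood adjusted p = 0.115), but it was by DESeq2, without the filter on low counts and without released replicate 3.

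In the other direction, ame_circ_0002114 (LG11, 11325617 to 11325840, minus strand) had 599.7, 811 and 943 CPM in laying and 266, 352 and 414 CPM in caged libraries, which did not overlap, and 536, 616 and 315 CPM in released libraries, which overlapped both. It was not called (log2 fold change −1.14, SE 0.31, edgeR quasi-likelihood adjusted p = 0.164), but DESeq2 called it. In released vs caged queens the smallest p belonged to ame_circ_0006366 (LG15, 5591528 to 5591882, plus strand), with 329, 258 and 227 CPM in caged and 536, 751 and 405 CPM in released libraries. These did not overlap, and laying libraries, at 262, 236 and 179.6 CPM, overlapped the caged ones. It was not called (log2 fold change 0.99, SE 0.33, edgeR quasi-likelihood adjusted p = 0.721).

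In released vs laying queens, ame_circ_0008019 (LG1, 10978631 to 10978872, plus strand) had 382, 448 and 460.1 CPM in laying and 789.5, 1159 and 721 CPM in released libraries. Virgin libraries, at 1862, 1925 and 2065 CPM, were above both, and caged libraries had 542, 423 and 596 CPM. The released libraries lay between the virgin and the laying ones without overlap. The difference from laying was not called (log2 fold change 1.03, SE 0.26, edgeR quasi-likelihood adjusted p = 0.235).

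The minor circRNA at the most shared end, ame_circ_0001519, varied widely between caged and between released replicates. Virgin libraries had 29.8, 105 and 109 CPM and laying libraries 1402, 1598 and 662 CPM. Caged libraries had 82.2, 170.2 and 459.6 CPM and released libraries 1212, 1080.1 and 72.1 CPM. Laying libraries were all above virgin and caged ones, and released replicate 3 lay within the virgin range. It rose in laying vs virgin queens (log2 fold change 4.22, SE 0.77, edgeR quasi-likelihood adjusted p = 0.000466). In caged vs laying queens it was not called (log2 fold change −2.35, SE 0.65, edgeR quasi-likelihood adjusted p = 0.188), but it was without the filter on low counts and without released replicate 3. Its share of the overlapping reads moved with its level, from 1.12%, 1.77% and 2.74% in virgin to 16.2%, 16.9% and 8.89% in laying libraries.

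The share of a circRNA among the overlapping ones does not depend on the library total. It could be followed for 70 of the 452, which had an overlapping circRNA and at least 50 such reads in every library. The mean share was lower in laying than in virgin queens in 43 and higher in 26, and the difference ran from −43.2 to 12.1 percentage points with a median of −0.55. In the 43 of these with at most 90% of the reads, it was lower in 30 and higher in 13, with a median of −5.08 percentage points. Among the 70, the virgin libraries were above all 9 others in share in 6 and below all 9 in 2. The caged libraries were below all 6 laying and released ones in 4 and above them in 1. Such shares were not computed for longer circRNAs.

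The largest difference was in ame_circ_0017010 (LG7, 10883666 to 10883898, plus strand). It took 71.7%, 89.1% and 87.0% of the overlapping reads in virgin and 31.0%, 55.1% and 32.2% in laying libraries. In caged libraries it took 43.2%, 39.7% and 65.6%, and in released libraries 51.0%, 60.9% and 32.4%. All virgin libraries were above the other 9, which overlapped among themselves. Its own level also fell, from 1224 ± 222 to 335 ± 169.9 CPM (SD, n = 3 each, log2 fold change −1.64, edgeR quasi-likelihood adjusted p = 0.00537).

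In ame_circ_0019936 (LG9, 6702779 to 6703055, plus strand) the share was 80.8%, 75.7% and 77.4% in virgin and 43.9%, 52.3% and 60.2% in laying libraries, with means of 55.9% and 55.2% in caged and released libraries. Its virgin libraries too lay above all others in share, but its level was not called, with means of 1652 ± 299.6 CPM before and 1093 ± 337 CPM during laying. The share of ame_circ_0011213 (LG2, 13909141 to 13909483, minus strand) went from 42.0%, 36.0% and 45.3% in virgin to 18.2%, 23.4% and 24.0% in laying libraries, while its mean level was 347 ± 68.4 CPM in virgin and 486 ± 85.2 CPM in laying libraries and was not called. Shares in ame_circ_0001487 were 69.3% and 50.3% and in ame_circ_0010305 35.5% and 20.3%, virgin and laying means. These 5 were picked for this difference, so it is a description and was not tested.

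**Figure D5:**
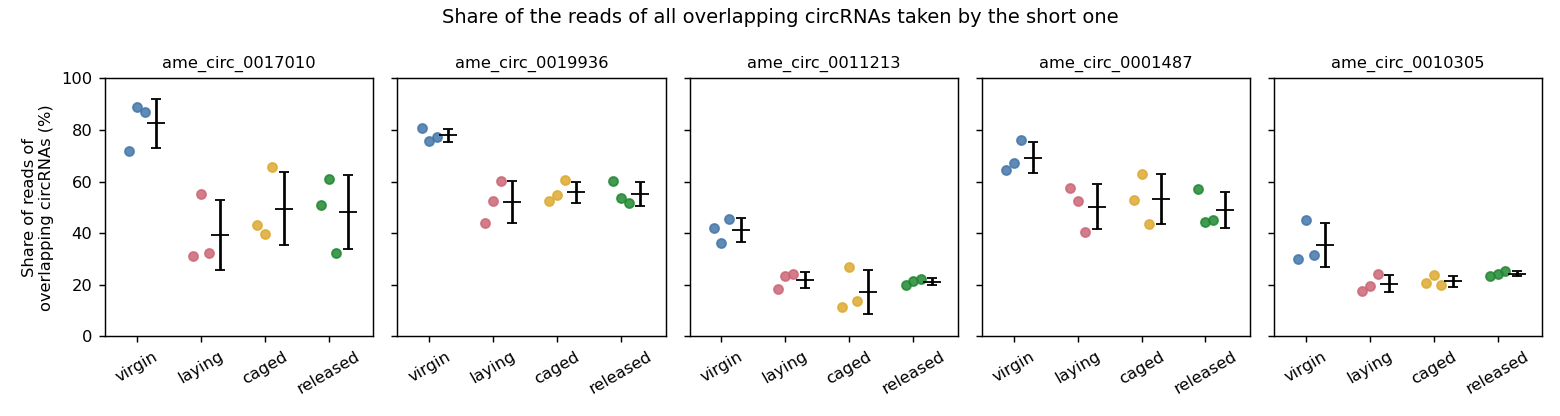
Share of the reads of all overlapping circRNAs of the strand (%) taken by 5 short circRNAs in each library. In each of them the virgin mean is the highest; in ame_circ_0017010 it is 82.6% in virgin and 39.4% in laying libraries.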

How the data were processed

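Per the labels' protocols, ovary RNA was freed of ribosomal RNA and treated with RNase R before strand-specific libraries were made and sequenced on an Illumina instrument, with Amel_4.5 as reference. The submitters' processing notes name Bowtie, without a version. For the circRNA caller, the sources used here give no name. Whole-number read counts per circRNA and library were deposited by the authors, beside columns headed TPM. These deposited columns equal CPM, the count per 1000000 circRNA reads of the library (difference at most 4.989e-06), with no length term. It is not stated whether starts count from 0 or 1. The gene table used is of another assembly, so 0 circRNAs were matched to genes.

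One edgeR 4.0.16 quasi-likelihood fit (R 4.3.3, TMM scaling, filterByExpr with min.count 5 and min.total.count 15) took the counts of all 12 libraries. P-values were adjusted by Benjamini-Hochberg over the 3215 circRNAs tested, and a circRNA was called under 0.05. The test was checked on simulated counts. The SE is the size of the log2 fold change divided by the square root of F. Since fold changes use TMM scaling and CPM do not, folds are not exact ratios of the printed means. Overlap means at least 1 nt on the same strand.

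The members and lists were chosen with earlier results of these data known. Named were the 10 most abundant circRNAs, the 6 higher and 6 lower with the largest change in laying vs virgin among called ones without overlap of libraries and of at least median level in the higher group, and 3 each way for caged and released vs virgin. In comparisons without calls, the 2 of smallest p per direction were taken. The 5 steadiest, the 3 shortest and 3 longest, those at the 3 most shared ends and the 5 with the largest difference in share of overlapping reads were added. Not all of them are described. Alternatives were DESeq2 1.42.0, limma 3.58.1, other scaling and filters, single libraries left out, the replicate block and other bounds.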

Additional observations from a re-analysis of the deposited data

How the results depend on the processing

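The replicate numbers gave no sign of paired libraries. Deviations of same-numbered libraries correlated at −0.16 to 0.107 over 18 pairs, 1 of them over 0.1. In all, 0 libraries correlated best with their own number throughout. With 3 libraries per group this cannot settle whether libraries were paired. With the replicate block, 106, 95 and 82 short circRNAs were called in laying, caged and released vs virgin queens, and 0 in the other comparisons. The share over all circRNAs tested was not taken for this fit.

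Leaving out 1 library gave 78 to 110 calls in laying vs virgin (22 to 39 higher, 54 to 74 lower), 73 to 107 in caged vs virgin (18 to 39 higher, 54 to 72 lower) and 69 to 91 in released vs virgin (18 to 30 higher, 49 to 62 lower). The lowest counts of higher calls came without virgin replicate 3, where 7.65%, 7.90% and 6.24% of all tested were called higher. For other libraries left out, the share over all tested was not taken. For caged vs laying the range was 0 to 3 (1 without caged replicate 2, 1 without released replicate 2, 3 without released replicate 3), for released vs laying 0 to 1 (1 without released replicate 1) and for released vs caged 0 to 0.

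Without the filter on low counts, 49 fell in laying and 40 in released vs virgin, and 4, 2 and 2 were called in caged vs laying, released vs caged and released vs laying. DESeq2 called 9 in caged vs laying (2.04%, all tested 0.840%). Limma on log2(CPM + 1) called 21 higher in caged vs virgin, and its share over all tested was not taken. A bound of 400 nt, which holds fewer circRNAs, left 22, 21 and 16 higher in laying, caged and released vs virgin. In that same fit 12.5%, 13.4% and 11.4% of all tested were called higher. The causes of these differences were not tested.

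The mean share of reads in virgin, laying, caged and released libraries was 14.7%, 12.7%, 10.4% and 12.1% with a bound of 400 nt and 27.3%, 26.0%, 21.9% and 24.6% with 600 nt. It was 23.8%, 20.5%, 17.3% and 19.8% of the reads of widely listed circRNAs. Of reads outside the left-out stretches it was 21.4%, 17.6% and 20.3% in the last 3 groups. Without the most abundant circRNA it was 16.7%, 14.4% and 16.7% in those groups, and without the 10 most abundant it was 15.5%, 11.4%, 9.99% and 11.4%, both chosen after seeing the data. Listed in 3 of 3 libraries, it was 18.5% in laying and 15.4% in caged queens. In each of these the caged libraries were the lowest.

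Direction turned only in uncalled log2 fold changes of laying vs virgin near 0, among the circRNAs named by the rule. With 1 library left out, ame_circ_0005505 ran from −0.18 to 0.015, ame_circ_0010611 from −0.020 to 0.35, ame_circ_0010762 from −0.51 to 0.044, ame_circ_0013333 from −0.19 to 0.11 and ame_circ_0014678 from −0.31 to 0.092. Without the filter ame_circ_0005505 was at 0.013 and ame_circ_0013333 at 0.077, which was at 0.019 with only the 2 groups compared. By limma, ame_circ_0010611 was at −0.0106 and −0.0105 with 1 and 10 CPM added.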

Other observations

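Of the short circRNAs, 10 lie on 1 small stretch and were noted after their values were seen. Scaffold GL630411.1 listed 53 circRNAs, of which 45 were short and 13 were widely listed. The 10 that were both lay between 1128 and 1414, with spans of 195 to 264 nt. They used 7 starts and 5 ends, 7 were on the plus strand and 3 on the minus strand, and all 10 overlapped a circRNA on the opposite strand. Their summed level was 243, 2662 and 629.6 CPM in virgin, 525, 552 and 830 CPM in laying, 411, 493 and 335 CPM in caged and 949, 574 and 973 CPM in released libraries. Virgin replicate 2, the library with the fewest reads, was the highest and virgin replicate 1 the lowest. None of the 10 was called in laying vs virgin queens (edgeR quasi-likelihood test).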
